A study of Homo sapiens with 18 samples.

Results

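The genes that encode translation initiation and elongation factors were followed through their splice junctions. Membership was set by symbol: a protein-coding gene in GENCODE release 44 whose name begins with EIF or EEF and a digit, which gave 71 genes. Of these, 58 had at least 1 intron among the 233650 introns of the series, with 672 introns in all. An intron was tested when its PSI averaged 0.01 to 0.99 over the 18 libraries, and this left 406 introns in 142 clusters and 53 genes, against 152722 tested introns in the whole series. PSI (percent spliced in) is here the share of the junction reads of a cluster, a set of introns that share splice sites, that fell on 1 intron. It is a share of junction reads, which for first exons also depends on where transcripts start, and not a level of RNA or protein.

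The cells were SHEP.tet21n, a single neuroblastoma line that carries a human MYCN cDNA which doxycycline (Dox) shuts off. MYCN- cells received Dox at 2 µg/mL and MYCN+ cells received the vehicle DMSO. Each was transfected with a control siRNA (SNRPD3+) or with SNRPD3 siRNA #1 or #2 (SNRPD3-), and MYCN-/SNRPD3+ is called wildtype. SNRPD3 is a Sm protein of the spliceosome core. The 6 groups had 3 libraries each. MYCN status and the presence of Dox cannot be told apart, and the knockdown and MYCN RNA levels cannot be read from PSI values. No read counts accompany the PSI values, so depth is unknown and no counting interval is given. The study calls its replicates independent biological ones, while the labels do not name the cultures, and p-values measure the spread between these libraries.

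Initiation factors bring the small ribosomal subunit to an mRNA and find the start codon: eIF4F binds the cap and unwinds the leader, eIF2 carries the initiator tRNA, eIF3 holds the factors on the subunit, and eIF5, eIF5B and eIF6 govern how the subunits join. The eIF2 kinases slow initiation under stress. Elongation factors then deliver tRNAs, move the ribosome and, in the case of eIF5A, help it through difficult peptide bonds. MYC proteins are known as drivers of ribosome production and translation in tumour cells.

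The splice sites and exons on which the results turn were read from hg38 and run 5′ to 3′ on the strand of the gene. For donor sites, the capitals mark the last 3 exon bases and the first 6 intron bases. For the acceptor they mark the terminal AG of the intron. The EIF5A sites at chr17:7307743-7307762 and chr17:7308104-7308123 are the donors of 2 competing first exons, joined to 1 acceptor at chr17:7309591-7309620, and all lie on the plus strand.
EIF5A canonical first exon, donor: ttcgcgcGAGGTGAGAgcgg
EIF5A alternative first exon, donor: gccacgtGAGGTGGGGgagg
EIF5A common acceptor of exon 2: cttcagttctcttcttggctctAGttggaa

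Whole exons are shown in capitals, with 10 intron bases in lower case on each side, for the 3 coding exons whose skipping was called. With the flanking bases counted in the coordinates, they are exon 3 of EIF4E2 (chr2:232557874-232558028, plus strand), exon 6 of EIF3K (chr19:38632591-38632688, plus strand) and exon 28 of EIF2AK4 (chr15:40016492-40016682, plus strand), numbered along the Ensembl canonical transcript. Their lengths of 135, 78 and 171 bases are multiples of 3, so skipping them keeps the reading frame.
EIF4E2 cassette exon: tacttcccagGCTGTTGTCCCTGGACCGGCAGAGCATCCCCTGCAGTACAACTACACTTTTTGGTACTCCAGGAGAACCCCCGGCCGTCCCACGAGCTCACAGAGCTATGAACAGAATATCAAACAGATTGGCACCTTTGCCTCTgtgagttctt
EIF3K cassette exon: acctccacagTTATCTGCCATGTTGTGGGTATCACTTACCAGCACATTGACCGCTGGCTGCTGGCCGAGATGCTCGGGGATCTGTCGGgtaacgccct
EIF2AK4 cassette exon: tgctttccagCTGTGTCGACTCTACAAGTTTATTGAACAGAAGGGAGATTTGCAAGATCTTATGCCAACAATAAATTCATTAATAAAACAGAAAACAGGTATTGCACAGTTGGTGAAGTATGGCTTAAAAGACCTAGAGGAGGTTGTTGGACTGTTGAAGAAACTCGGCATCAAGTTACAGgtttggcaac

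The competing donors of EIF3F intron 2 (chr11:7991842-7991861 and chr11:7991962-7991981, plus strand) and of EIF3K intron 1 (chr19:38619318-38619337 and chr19:38619214-38619233, plus strand) are shown because use of the minor donor was called in each.
EIF3F canonical donor of intron 2: agaagatGAAGTGAGTggga
EIF3F downstream donor of intron 2: cttcccaTTTGTACGTactt
EIF3K canonical donor of intron 1: gtatcgaCAGGTCTGAgccc
EIF3K upstream donor of intron 1: gccgtgcCGGGTCAGTgtta

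The largest number of calls came with MYCN averaged over the siRNAs, that is, the mean of the 3 MYCN+ groups against the mean of the 3 MYCN- groups. Here 8 of the 406 introns, in 5 genes, had an adjusted p under 0.05 in limma (1.97%), against 1.23% of all tested introns. They belonged to EIF5A (2 introns), EIF3F (2), EIF3K (2), EIF2AK4 and EIF4E2. EIF5A and EIF3F had 2-intron clusters, so their paired introns mirror each other and each pair is 1 event. The median absolute difference was 0.729 percentage points over the 406 introns and 1.21 over all introns. With the control siRNA alone (MYCN alone), 2 introns were called, both of EIF5A, against 0.0543% of all introns. At an unadjusted p under 0.05, 57 introns passed with MYCN averaged (14%, against 11.7% of all introns) and 23 in MYCN alone (5.67%, against 6.19%). The introns are placed by role in the plot of differences by group of factors.

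**Figure D1:**
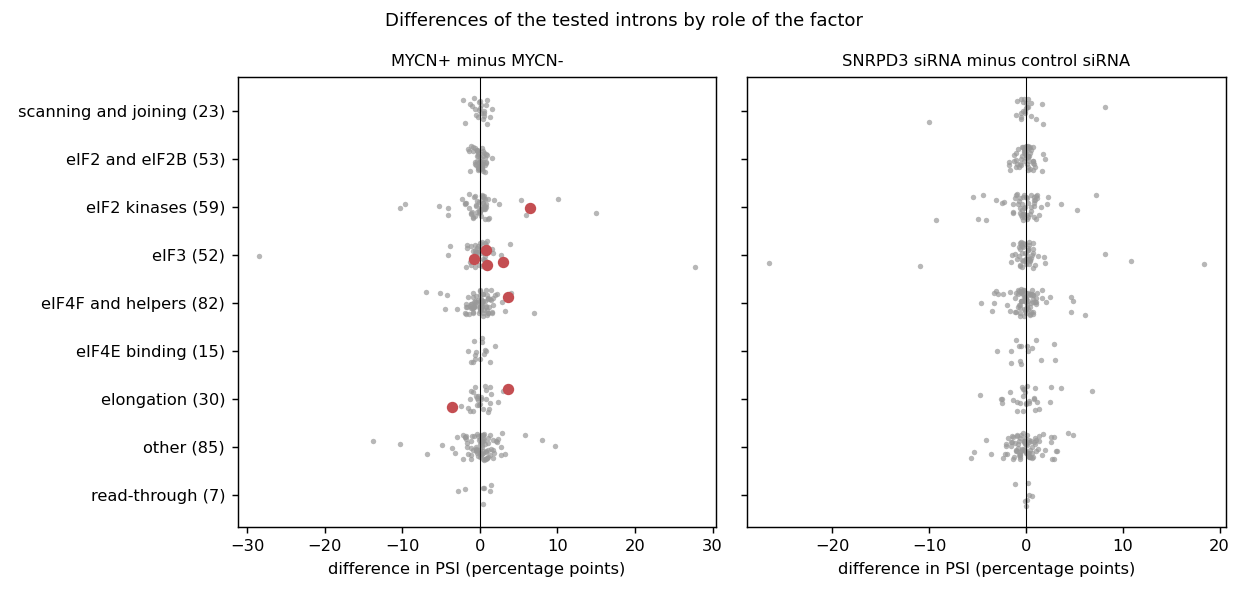
Difference in PSI of the 406 tested introns, in percentage points on the horizontal axis, by role of the factor on the vertical axis with the number of introns in brackets; the left panel shows MYCN+ minus MYCN- and the right panel SNRPD3 siRNA minus control siRNA. Red points passed an adjusted p of 0.05 (8 on the left, 0 on the right) and grey points did not, and the vertical spread within a row is random.

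EIF5A, the hypusine-bearing factor that assists elongation, showed the most separated values. Its canonical first exon (chr17:7307628-7307752) and an alternative one (chr17:7307974-7308113) are both joined to exon 2 at position 7309615. These exons have separate annotated transcript starts. Their shares therefore reflect which start was used as well as splicing, and PSI cannot tell these apart. In GENCODE the coding transcripts that carry either exon share a start codon in exon 2 at 7309636, which places both first exons in the 5′ untranslated region of those transcripts. The canonical exon took 92.6, 94.3 and 93.4% of the junction reads in the 3 wildtype libraries, and 96.8, 97.2 and 96.8% in the MYCN+/SNRPD3+ libraries. It took 94.0, 93.5 and 92.8% in MYCN-/SNRPD3- #1 and 93.0, 92.7 and 92.5% in MYCN-/SNRPD3- #2. The values were 96.7, 97.1 and 96.5% in MYCN+/SNRPD3- #1 and 97.0, 96.8 and 96.4% in MYCN+/SNRPD3- #2. The 9 MYCN+ libraries (96.8% ± 0.26, SD) all lay above the 9 MYCN- libraries (93.2% ± 0.62), and the groups did not overlap.

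The alternative first exon of EIF5A therefore took 3.21% of the reads with MYCN and 6.80% without. The averaged difference was 3.59 percentage points, or 0.94 ± 0.07 (SE) on the log2 odds scale (limma, adjusted p = 3.5e-05). It was called under every scale and filter tried, and without each of the 18 libraries in turn (adjusted p from 5.3e-05 to 0.000177 without 1 library). In MYCN alone the difference was 3.48 points (limma, adjusted p = 0.0129), in MYCN+/SNRPD3- #1 against wildtype 3.33 points (adjusted p = 0.0160) and in MYCN+/SNRPD3- #2 against wildtype 3.25 points (adjusted p = 0.0237). These 3 comparisons share the wildtype libraries. The MYCN alone call was lost on the arcsine scale (adjusted p = 0.0605), with only the groups compared (0.219), with a trended, robust prior (0.0771 and 0.108 for the 2 introns), and without wildtype replicate 1 (0.0654), wildtype replicate 3 (0.0526) or MYCN+/SNRPD3+ replicate 2 (0.0804). The #1 call was lost with only the groups compared (0.201), with the trended, robust prior (0.0528) and without wildtype replicate 1 (0.0609) or 3 (0.0625). The #2 call was lost with only the groups compared (0.215), with the trended, robust prior (0.0830), on the arcsine scale (0.0630), and without wildtype replicate 1 (0.0825) or 3 (0.0855) or any replicate of its own knockdown group (0.0801, 0.0677 and 0.0535 for replicates 1 to 3).

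SNRPD3 siRNA left a difference of -0.28 points at EIF5A when averaged over both siRNAs and both MYCN states (limma, adjusted p = 0.923). The most common base at each donor position, over 276 annotated introns of 30 of these genes, spelled CAGGTAAGT. Of these 9 letters the canonical EIF5A donor GAGGTGAGA matched 6 and the alternative donor GAGGTGGGG matched 5. The letters CACGTG, the canonical E-box to which MYC proteins are known to bind and which reads the same on both strands, were not in any of the 6 RefSeq promoter windows of EIF5A (GRCh38.p14, 250 bases before to 50 after a transcript start). Within 1000 bases of its first exons they were found once, at chr17:7308106-7308111, inside the alternative first exon, whose donor line above holds them. Over the 74 windows of 57 translation factor genes, 20.3% held CACGTG, against 7.26% of all 35116 windows. These windows were not matched for base composition. MYCN binding was not measured in these libraries, and whether it bears on the first exons of EIF5A or on the PSI of the other genes was not tested.

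In eIF4F and its helpers, which had 82 tested introns in 8 genes, the 1 intron called with MYCN averaged belonged to EIF4E2. With 1.23% of all tested introns called, this count is near the background. This gene encodes the cap-binding protein 4EHP, which binds caps without eIF4G and is known as a repressor of translation. The intron at chr2:232556530-232564247 skips the exon 3 printed above. Its PSI was 4.25, 3.34 and 3.99% in wildtype, 5.99, 4.68 and 6.72% in MYCN-/SNRPD3- #1, and 5.11, 3.94 and 5.94% in MYCN-/SNRPD3- #2. It was 5.92, 6.45 and 6.34% in MYCN+/SNRPD3+, 8.27, 8.64 and 12.6% in MYCN+/SNRPD3- #1, and 8.17, 7.42 and 12.6% in MYCN+/SNRPD3- #2. The wildtype mean was the lowest of the 6 groups, although MYCN-/SNRPD3- #2 replicate 2 lay within the range of the wildtype libraries. The MYCN+/SNRPD3- libraries were the highest of the 18, and replicate 3 was highest in all 4 knockdown groups.

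Skipping of EIF4E2 exon 3 was higher with MYCN averaged over siRNAs by 3.60 points (0.73 ± 0.13 log2 odds, limma, adjusted p = 0.0175), a call kept on every scale, filter and prior tried and without each library in turn (at most 0.0410). Against wildtype, MYCN+/SNRPD3- #1 was higher by 5.98 points (limma, adjusted p = 0.0477), and MYCN+/SNRPD3- #2 by 5.53 points (adjusted p = 0.0852). The first of these calls was lost without any 1 of 16 of the 18 libraries, those outside the comparison included (up to 0.162, without MYCN+/SNRPD3- #1 replicate 3), and kept only without MYCN+/SNRPD3- #2 replicate 2 or 3. It was also lost on the arcsine scale (0.0811), with an offset of 0.05 (0.0636), without the PSI filter (0.0514), with only the groups compared (0.205) and with the trended, robust prior (0.0848). As exon inclusion, exon 3 was at 92.6% ± 0.87 (SD, n = 3) in wildtype, 88.3% ± 0.49 in MYCN+/SNRPD3+, 82.2% ± 3.9 in MYCN+/SNRPD3- #1 and 82.9% ± 4.6 in #2. The knockdown averaged over siRNAs and MYCN status gave 2.46 points (limma, adjusted p = 0.333), and the interaction of knockdown and MYCN gave 0.17 ± 0.28 log2 odds (adjusted p = 1).

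The rest of the cap-binding group gave no calls in the main comparisons, which with MYCN averaged is near the 1.23% of all introns. EIF4G2 encodes DAP5, an eIF4G relative that lacks the part of eIF4G that binds eIF4E. The intron that skips its exon 14 (114 bases, a multiple of 3) had a PSI of 5.86 to 7.0% (median 6.12%) in the MYCN+ libraries and 6.54 to 8.99% (median 7.45%) in the MYCN- libraries. The difference was -1.57 points (limma, adjusted p = 0.0575), and exon inclusion was 88.8% ± 0.26 in MYCN+/SNRPD3+ and 85.1% ± 1.3 in wildtype (SD, n = 3). In EIF4G3, an eIF4G paralogue, an annotated exon of 111 bases outside the canonical transcript was included at 21.8% ± 2.5 in wildtype and 21.0% ± 2.0 in MYCN+/SNRPD3+, against 17.3 to 18.6% in the means of the 4 knockdown groups. The PSI of the intron downstream of that exon differed by -3.49 points with knockdown (limma, adjusted p = 0.332). Both exons run on the minus strand, at chr11:10801651-10801784 and chr1:20892609-20892739 with their flanks, and they are shown because they had among the lowest p of exons in MYCN and in knockdown without being called.
EIF4G2 cassette exon: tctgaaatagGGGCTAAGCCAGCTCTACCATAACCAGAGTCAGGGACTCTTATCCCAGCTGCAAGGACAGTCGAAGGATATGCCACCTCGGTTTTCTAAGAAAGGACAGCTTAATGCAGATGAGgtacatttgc
EIF4G3 cassette exon: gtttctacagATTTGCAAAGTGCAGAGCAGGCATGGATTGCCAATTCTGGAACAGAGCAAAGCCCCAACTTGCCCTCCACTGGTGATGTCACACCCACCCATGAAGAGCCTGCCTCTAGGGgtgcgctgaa

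EIF4H, which stimulates the helicase eIF4A, varied widely among replicates at its exon 5 (60 bases, a multiple of 3). Inclusion was 31.7% ± 6.6 in wildtype and 36.2% ± 4.9 in MYCN+/SNRPD3+ (SD, n = 3), and the libraries ran from 19.5 to 41.4%. The averaged MYCN and knockdown differences of its skipping intron were -4.22 points (limma, adjusted p = 0.652) and 6.13 points (adjusted p = 0.676). EIF4A2, a helicase of eIF4F, carried an exon of 107 bases annotated in transcripts subject to nonsense-mediated decay, and its inclusion was computed at 38.8 to 67.9% over the 18 libraries. A form of 111 bases, annotated with a retained intron, has the same start and the same skipping intron (41.0 to 70.9%). Both values use the shared upstream intron, so neither is the inclusion of 1 form alone. The named introns of EIF4B, EIF4E and EIF4G1 differed by -0.24 to 0.42 points with knockdown (limma, adjusted p from 0.816 to 0.951). EIF4A2 and EIF4H had named introns at 1.16 and -2.87 points (adjusted p = 0.461 and 0.575), and for EIF4G2 the value was -0.49 points (0.980). The second alternative exon of EIF4E2, of 79 bases, was included at 45.1% ± 0.32 in wildtype, 42.4% ± 3.2 in MYCN+/SNRPD3+, 28.4% ± 4.3 in MYCN+/SNRPD3- #1 and 34.4% ± 6.3 in MYCN+/SNRPD3- #2. The MYCN+/SNRPD3- libraries, at 23.5 to 38.9%, were the lowest of the 18 at this exon, the highest of them only narrowly. The skipping intron of this exon differed from wildtype by 1.39 and 1.54 points in MYCN+/SNRPD3- #1 and #2 (limma, adjusted p = 0.772 and 0.785). These p-values are for the skipping intron alone, and the difference in inclusion was not tested.

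eIF3, the scaffold that holds initiation factors on the small subunit, had 52 tested introns in 12 of its 14 genes. With MYCN averaged, 4 were called, which are 3 events since the EIF3F pair mirrors itself, against 1.23% of all introns, and the call of the EIF3K upstream donor, described below, was lost without any 1 of 16 libraries. In EIF3K, the intron at chr19:38632496-38634993 skips the exon 6 printed above. Its PSI was 1.92, 1.45 and 2.26% in wildtype, 2.87, 2.02 and 4.69% in MYCN-/SNRPD3- #1, and 2.76, 1.65 and 3.45% in MYCN-/SNRPD3- #2. It was 4.41, 3.23 and 3.36% in MYCN+/SNRPD3+, 6.79, 5.61 and 9.52% in MYCN+/SNRPD3- #1, and 5.57, 3.86 and 8.02% in MYCN+/SNRPD3- #2. The MYCN+ and MYCN- libraries overlapped, and replicate 3 was highest in all 4 knockdown groups.

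Skipping of EIF3K exon 6 was higher with MYCN by 3.03 points (0.91 ± 0.18 log2 odds, limma, adjusted p = 0.0232). The call was lost without wildtype replicate 2 (0.0527) or MYCN+/SNRPD3+ replicate 1 (0.0522). Inclusion of the exon was 96.3% ± 0.79 in wildtype, 92.9% ± 1.2 in MYCN+/SNRPD3+, 86.4% ± 3.5 in MYCN+/SNRPD3- #1 and 89.1% ± 3.7 in #2 (SD, n = 3). MYCN+/SNRPD3- #1 against wildtype gave 5.43 points (limma, adjusted p = 0.0540), and the averaged knockdown 1.96 points (adjusted p = 0.426).

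At the 5′ end of EIF3K, an upstream donor of intron 1 (position 38619223, acceptor 38620337) had a PSI of 1.72 to 2.58% (median 2.39%) in the MYCN+ libraries and 0.708 to 1.68% (median 1.47%) in the MYCN- libraries. The groups did not overlap. The difference of 0.97 points was close to the threshold (limma, adjusted p = 0.0455), and the call was kept only without MYCN-/SNRPD3- #1 replicate 2 or MYCN+/SNRPD3+ replicate 1, with up to 0.0906 when any of the other 16 libraries was left out (without MYCN+/SNRPD3+ replicate 2). It was also lost on the arcsine scale (0.0946), with an offset of 0.001 (0.0571) or 0.05 (0.0724), without the PSI filter (0.0545) and with the trended, robust prior (0.0868). The upstream donor CGGGTCAGT matched 7 of the 9 letters of CAGGTAAGT and the canonical donor CAGGTCTGA matched 6.

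In EIF3F, intron 2 is removed from a canonical donor at 7991851 or, rarely, from a donor at 7991971, to the acceptor at 7992084 on chromosome 11. The downstream donor had a PSI of 0.98, 0.578 and 0.715% in wildtype and 1.21, 1.34 and 1.47% in MYCN+/SNRPD3+. It had 0.679, 0.811 and 1.06% in MYCN-/SNRPD3- #1 and 1.06, 1.15 and 0.898% in MYCN-/SNRPD3- #2. It had 2.20, 1.40 and 1.92% in MYCN+/SNRPD3- #1 and 1.65, 1.42 and 2.25% in MYCN+/SNRPD3- #2. All 9 MYCN+ libraries lay above all 9 MYCN- libraries, at low levels throughout.

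The downstream donor of EIF3F was higher with MYCN by 0.77 points (0.50 ± 0.09 log2 odds, limma, adjusted p = 0.0175). The call was kept without each library in turn (at most 0.0408) and lost on the arcsine scale (0.0712), with an offset of 0.05 (0.0775) and with the trended, robust prior (0.0567, and 0.0805 for the canonical donor). Use of this donor keeps 120 further bases, which hold 2 stop codons in the reading frame of the canonical transcript, the nearer at codon 28 of the added stretch. It is annotated only in transcripts subject to nonsense-mediated decay. Its letters TTTGTACGT matched 5 of those 9 letters, against 6 for the canonical GAAGTGAGT.

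Introns that did not overlap between the 9 MYCN+ and the 9 MYCN- libraries numbered 5 of 406 (1.23%), against 0.353% of all tested introns, and they were those of EIF5A, EIF3F and the EIF3K upstream donor. EIF5A and EIF3F each count here with both introns of a mirrored pair, which is 1 event. Among the other eIF3 genes, intron 1 of EIF3D, whose product is a cap-binding eIF3 subunit, had a PSI of 93.2% ± 1.1 (SD, n = 9) with MYCN and 94.8% ± 0.89 without. The difference was -1.68 points (limma, adjusted p = 0.0514), and the libraries overlapped. EIF3A and EIF3B, core subunits of the complex, had named introns that differed by -0.52 and -0.72 points with knockdown (limma, adjusted p = 0.984 and 0.987). EIF3C intron 8 differed by 1.88 points (adjusted p = 0.471).

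**Figure D2:**
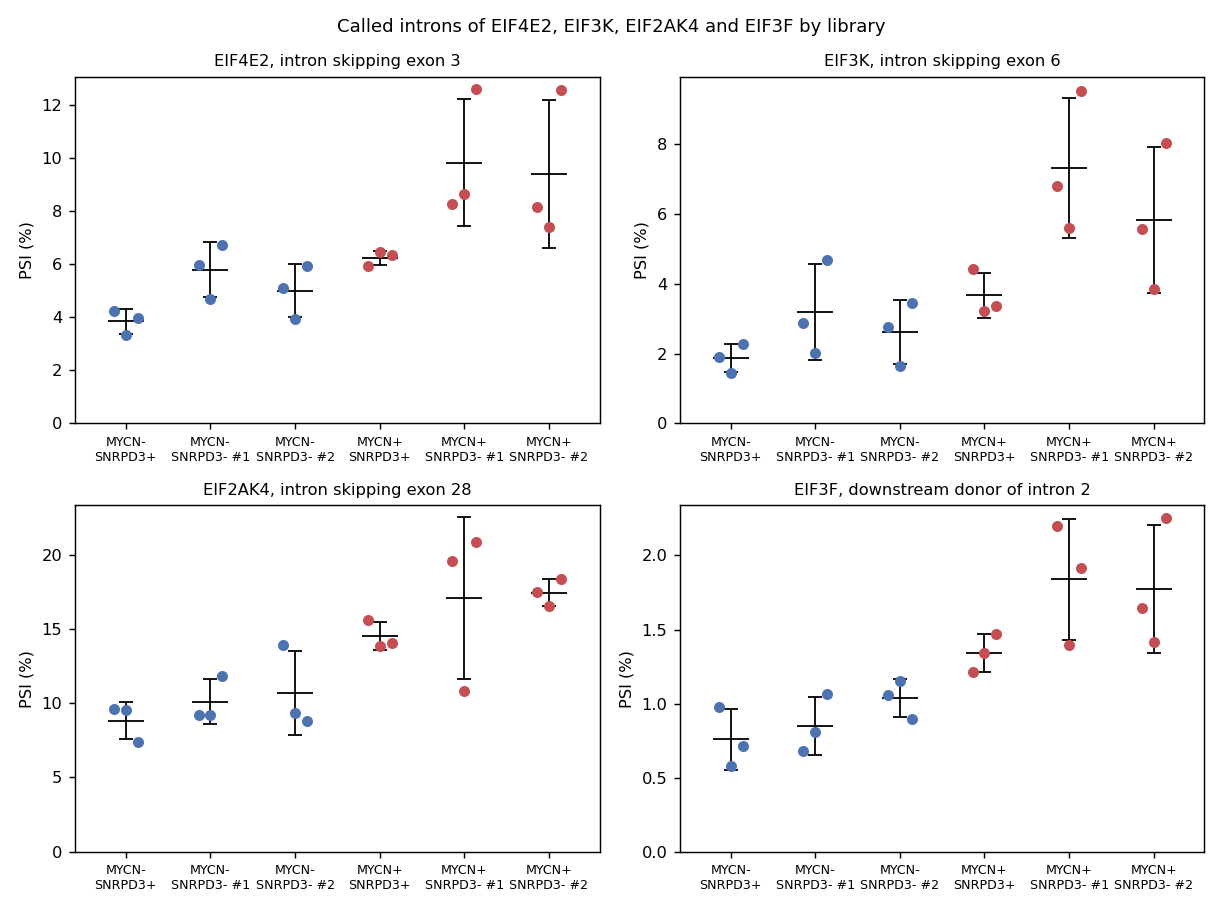
PSI in percent, on vertical axes that start at 0, of the introns that skip EIF4E2 exon 3, EIF3K exon 6 and EIF2AK4 exon 28 and of the downstream donor of EIF3F intron 2, in the 6 groups; points are libraries (blue MYCN-, red MYCN+), the horizontal bar is the mean and the error bar 1 SD (n = 3). The MYCN+ group means lie above the wildtype mean in all 4 panels, and for EIF3F the MYCN+ libraries at 1.21 to 2.25% do not overlap the MYCN- libraries at 0.578 to 1.15%.

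The 4 eIF2 kinases, which phosphorylate eIF2α under stress, had 59 tested introns, of which 1 was called with MYCN averaged (1.23% of all introns). In EIF2AK4, the gene of GCN2, the sensor of amino acid shortage, the intron at chr15:40011346-40017108 skips the exon 28 printed above. Its PSI was 9.6, 9.54 and 7.36% in wildtype, 9.23, 9.22 and 11.8% in MYCN-/SNRPD3- #1, and 13.9, 9.36 and 8.79% in MYCN-/SNRPD3- #2. It was 15.6, 13.9 and 14% in MYCN+/SNRPD3+, 19.6, 10.8 and 20.8% in MYCN+/SNRPD3- #1, and 17.5, 16.5 and 18.4% in MYCN+/SNRPD3- #2. MYCN+/SNRPD3- #1 replicate 2 and, narrowly, MYCN+/SNRPD3+ replicate 2 lay within the range of the MYCN- libraries.

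Skipping of EIF2AK4 exon 28 was higher with MYCN by 6.47 points (0.78 ± 0.15 log2 odds, limma, adjusted p = 0.0236), and inclusion was 83.8% ± 2.2 in wildtype and 74.7% ± 1.4 in MYCN+/SNRPD3+ (SD, n = 3). The call was kept under every scale and filter and lost, at 0.0507 to 0.0547, without any 1 of 7 libraries: wildtype replicate 3, MYCN-/SNRPD3- #1 replicates 1 and 2, MYCN-/SNRPD3- #2 replicates 2 and 3, MYCN+/SNRPD3+ replicate 1 and MYCN+/SNRPD3- #2 replicate 3. The skipping intron is annotated only in a transcript classed as a retained intron. The averaged knockdown difference was 2.17 points (limma, adjusted p = 0.796). The EIF2AK4 intron of lowest knockdown p, at chr15:39978147-39987983, had 0.391 to 0.581% in wildtype and differed by 0.86 points (limma, adjusted p = 0.231).

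The other kinases held introns that switched between near 0 and large shares within a group. In EIF2AK1, the heme-regulated kinase HRI, the intron at chr7:6023746-6024653, which is no annotated intron, had 0.208 to 0.268% in wildtype and 22.9 to 29.0% in MYCN-/SNRPD3- #1. It ran from 0.368 to 35.9% in MYCN-/SNRPD3- #2 and from 0.157 to 47.8% in MYCN+/SNRPD3+. Averaged knockdown gave 7.22 points (limma, adjusted p = 0.748). In EIF2AK2, the double-stranded RNA sensor PKR, an intron at chr2:37107395-37109194, also no annotated intron, had 0.739 to 1.20% in wildtype and 2.01 to 3.85% in MYCN+/SNRPD3+. It had 1.84 to 4.22% in the MYCN- knockdown libraries and 1.79 to 5.71% in the MYCN+ knockdown libraries, so the MYCN+ control and knockdown libraries overlapped, and it differed by 1.51 points with knockdown (limma, adjusted p = 0.329). A further unannotated EIF2AK2 intron, at chr2:37102046-37104015, ran from 0.265 to 37.6% in MYCN- libraries and from 0.139 to 7.93% in MYCN+ libraries (MYCN averaged -10.30 points, limma, adjusted p = 0.479). In EIF2AK3, the endoplasmic reticulum kinase PERK, the named intron differed by 2.30 points (adjusted p = 0.575).

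Knockdown of SNRPD3 averaged over siRNAs and MYCN status gave 0 calls among the 406 introns in limma, against 0.0242% of all tested introns. At an unadjusted p under 0.05, 48 introns passed (11.8%), against 7.80% of all introns, and 29 of the 48 were higher and 19 lower. The lowest adjusted p was 0.156. The libraries of the 12 knockdowns and the 6 controls did not overlap for 1 of the 406 introns (0.246%, against 0.0642% of all introns). It is an annotated intron of EIF3E, the gene of an eIF3 subunit, and was picked after its values were seen. Its PSI was 0.762, 0.923 and 0.675% in wildtype and 0.867, 0.683 and 0.696% in MYCN+/SNRPD3+, and it ran from 1.12 to 2.44% (median 1.40%) in the knockdown libraries. The difference of 0.77 points did not pass (limma, adjusted p = 0.156).

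The siRNA comparisons taken singly gave 0 calls as well. Against MYCN+/SNRPD3+, siRNA #1 had 33 translation factor introns at an unadjusted p under 0.05 (8.13%, against 7.25% of all introns), and siRNA #2 had 26 (6.40%, against 6.17%), while limma called 0.0144% and 0.0164% of all introns. In MYCN- cells against wildtype, #1 had 21 (5.17%, against 4.54%) and #2 had 22 (5.42%, against 4.69%), while 0.0105% and 0.0151% of all introns were called. The interaction had 11 (2.71%, against 3.98%), while 0.0177% of all introns were called. A block for the replicate number, and the other scales and filters, also gave 0 calls in these comparisons. The exceptions were 1 intron in each of #1 and #2 against MYCN+/SNRPD3+ and in MYCN-/SNRPD3- #1 against wildtype with only the groups compared, and 1 intron without a single library in the averaged knockdown (MYCN-/SNRPD3- #2 replicate 1) and in #2 against MYCN+/SNRPD3+ (MYCN+/SNRPD3- #2 replicate 2).

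The combined perturbation was also set against wildtype. MYCN+/SNRPD3- #1 gave 3 calls among the 406 introns, against 0.278% of all introns, and MYCN+/SNRPD3- #2 gave 2, against 0.110%. They were the introns of EIF5A and EIF4E2 already described. At an unadjusted p under 0.05, 60 introns (14.8%) and 56 introns (13.8%) passed, against 10.4% and 9.19% of all introns.

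Among the introns with the lowest p for knockdown and a PSI of 0.05 to 0.95, EIF5A2, a paralogue of EIF5A, had intron 4 at 57.5, 55.2 and 56.8% in wildtype and 50.3, 49.4 and 52.4% in MYCN-/SNRPD3- #1. It had 55.0, 56.7 and 57.8% in MYCN+/SNRPD3+ and 49.8, 50.1 and 48.0% in MYCN+/SNRPD3- #1. With siRNA #2 it was 56.3, 53.1 and 56.2% in MYCN- cells and 52.5, 53.8 and 49.3% in MYCN+ cells. The siRNA #1 libraries lay below the control siRNA libraries of the same MYCN state, and those of #2 overlapped them in MYCN- cells. The averaged difference was -4.72 points (limma, adjusted p = 0.291).

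EIF6 encodes the factor that keeps the large subunit from joining too early. The intron that skips its exon 4 (176 bases, not a multiple of 3) averaged 4.23% in wildtype, 5.48% and 5.0% in MYCN-/SNRPD3- #1 and #2, 4.67% in MYCN+/SNRPD3+, and 7.0% and 6.99% in MYCN+/SNRPD3- #1 and #2. Averaged knockdown gave 1.66 points (limma, adjusted p = 0.338). Of the other scanning and joining factors, EIF1, EIF1AX and EIF5B differed by -0.26 to 0.50 points (limma, adjusted p from 0.787 to 0.994). An unannotated intron of EIF5 had a PSI of 9.97 to 60.1% over the libraries and a difference of -9.96 points (adjusted p = 0.834). The group of eIF2, which carries the initiator tRNA, and its exchange factor eIF2B also took in EIF2A and EIF2D by symbol. Of the genes of eIF2 subunits, only EIF2S2 had tested introns. No intron of 53 in the 8 genes of this group was called, a count that is likewise near the 1.23% of all introns. EIF2S2 intron 1 differed by -0.20 points and EIF2B5 intron 7 by -1.0 points (limma, adjusted p = 0.838 and 0.555). EIF4ENIF1, the eIF4E transporter, had 15 tested introns, of which the lowest adjusted p was 0.704 with knockdown and 0.661 with MYCN.

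Genes that modify the factors, with a few other symbols of the rule, had 85 tested introns. None was called, and at 1.23% of all introns in the comparison with the most calls this count is near the background. EEF2K, the kinase that inhibits eEF2, had intron 1 at 73.6 to 89.4% (median 84.8%) in MYCN+ libraries and 83.2 to 99.9% (median 93.1%) in MYCN- libraries. The difference was -10.36 points (limma, adjusted p = 0.0932), with overlap between the libraries. An unannotated EEF2K intron, at chr16:22257385-22258494, had 0.956 to 1.65% in wildtype and a knockdown difference of 2.88 points (limma, adjusted p = 0.221). EEF1AKMT2, a lysine methyltransferase of eEF1A, had intron 4 at 39.4% ± 2.8 with MYCN and 44.2% ± 1.6 without (SD, n = 9), a difference of -4.85 points (adjusted p = 0.0804). EEF1AKMT1 and EEF2KMT, methyltransferases of eEF1A and eEF2, had named introns that differed by -3.62 and -5.71 points with knockdown (limma, adjusted p = 0.387 and 0.528).

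The best-known elongation factors could hardly be read. No intron of EEF1A1, EEF1G or EEF2 was analysed here, nor of 10 further members (EIF1AY, EIF2S3, EIF2S3B, EIF3CL, EIF4A1, EIF4A3, EIF4E1B, EIF4E3, EIF5AL1 and the read-through gene EEF1AKMT4-ECE2). The 5 genes EIF2S1, EIF3H, EIF4EBP1, EIF4EBP2 and EIF4EBP3 had introns but none with a PSI in the tested range. EEF1B2 had an intron at 82.3 to 85.6% in the group means (knockdown 0.88 points, limma, adjusted p = 0.937). EEF1D, an exchange factor subunit of eEF1, had 8 cassette exons by their boundaries, some of them versions of the same exon with another splice site. Their inclusion ran from 0.230 to 99.7% between libraries, with swings inside groups. For EEF1D the named intron differed by -2.44 points with knockdown (adjusted p = 0.422).

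Annotated cassette exons gave a wider view of these genes. In all, 65 exons of 29 genes had an annotated skipping intron and both flanking introns in 1 cluster, and 30 exons of 16 genes had a mean inclusion of 5 to 95%. Exons were counted by their boundaries, so versions of the same exon with another splice site count separately. Of the 30, 14 were wholly coding and 10 had a length that is a multiple of 3. Inclusion here is the mean PSI of the flanking introns over that mean plus the PSI of the skipping intron. An exon with more than 1 skipping intron therefore has more than 1 value. The exons of EIF4E2 (135 bases), EIF3K and EIF2AK4 were those with a called skipping intron.

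Further genes of the pathway, which are no translation factors by symbol, were read from a list, of which 28 genes had tested introns, 342 in all. With MYCN averaged, 8 introns of 4 genes were called (2.34%, 4 higher and 4 lower), against the 1.23% of all introns given above. The introns of each gene lie in 1 cluster, so the 8 calls are 4 events and the split by direction partly follows from that. DHPS, deoxyhypusine synthase, which makes the first modification step toward hypusine on eIF5A, had 3. Its intron at chr19:12680325-12681560 took 91.0 to 96.8% (median 94.3%) in MYCN+ libraries and 81.9 to 89.9% (median 86.9%) in MYCN- libraries, without overlap. The difference was 7.60 points (1.25 ± 0.17 log2 odds, limma, adjusted p = 0.00338).

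DPH1, an enzyme of diphthamide synthesis on eEF2, had a cluster of 2 introns. The intron at chr17:2033842-2035970 took 96.2 to 99.9% (median 97.9%) with MYCN and 86.8 to 92.7% (median 89.0%) without, again with no overlap. It was higher by 8.96 points (2.40 ± 0.29 log2 odds, limma, adjusted p = 0.00159), and by 11.1 points in MYCN+/SNRPD3- #1 against wildtype (adjusted p = 0.0243). DENR, a reinitiation factor, and PABPC4, a poly(A)-binding protein, had 2 and 1 called introns (limma, adjusted p from 0.00650 to 0.0204). With knockdown averaged, 0 of the 342 introns were called and the lowest adjusted p was 0.250.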

How the data were processed

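RNA of 18 libraries (6 groups of 3) was sequenced from TruSeq stranded mRNA libraries. According to the submitters' processing notes, reads were aligned to hg38 with STAR 2.5.0a and handled with SAMtools 1.3.1, and leafcutter grouped introns into clusters. The PSI values deposited by the authors are fractions, the share of each intron within its cluster in each library. Introns of a cluster sum to 1. A second deposited table holds the authors' FDR and delta PSI for pairs of groups and was not used. All 18 columns were matched to libraries by name, and 0 were left over.

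Introns were placed on GENCODE release 44 (hg38), since the files use that build. A tested intron counted as a member when at least 1 end lay at an exon boundary of a member gene: 344 of the 406 were annotated introns, 39 also touched another protein-coding gene and 7 belonged to the read-through gene EEF1E1-BLOC1S5. Coordinates of introns name the flanking exon bases. The log2 odds of each PSI, with 0.01 added to both the share and its complement, were fitted with limma 3.58.1 in R 4.3.3 (lmFit, eBayes, all 6 groups in 1 fit), and p-values were adjusted by Benjamini-Hochberg over 152722 introns within each of 10 comparisons. The count model of leafcutter needs reads, which were not used here. The fit was tested on simulated data. Differences in points are differences of group mean PSI.

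Named introns were every called one, the 8 of lowest p (1 per gene, PSI 0.05 to 0.95, no repeated value) in 5 comparisons, a list of core factors by their intron of lowest knockdown p, and cassette exons included at 5 to 95%. Genes in the text beyond those were members of the pathway list that were called. The members and lists were chosen with earlier results of these data known. Alternatives were another scale, offsets of 0.001 and 0.05, other PSI filters, thresholds, only the groups compared, a replicate block, a trended robust prior, both ends annotated, and each library left out. Plots were drawn with matplotlib 3.10.9.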

Additional observations from a re-analysis of the deposited data

How the results depend on the processing

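Counts of called introns are given for MYCN alone, MYCN+/SNRPD3- #1 against wildtype, MYCN+/SNRPD3- #2 against wildtype and MYCN averaged, which were 2, 3, 2 and 8. On the arcsine scale MYCN alone and #2 gave 0. With only the groups compared the first 3 gave 0, while #1 and #2 against MYCN+/SNRPD3+ and MYCN-/SNRPD3- #1 against wildtype gave 1 each in place of 0. The trended, robust prior gave 0 in the first 3. An adjusted p under 0.01 gave 0, 0, 0 and 2, and a difference of at least 5 points gave 0, 1, 0 and 1. Using only introns with 18 different values, a choice made after seeing the data, gave 5 in #1 against wildtype. Leaving out 1 library gave 0 to 2, 0 to 4, 0 to 3 and 6 to 9 calls, and 0 to 1 for the averaged knockdown and for #2 against MYCN+/SNRPD3+. The cause was not tested.

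A block for the replicate number gave 4 calls in place of 2 in #2 against wildtype and left the calls of the other 3 within 1.5 times. Same-numbered libraries did not deviate together on average (mean correlation 0.00615 over 45 pairs of libraries, from -0.0509 to 0.0638). An average over many introns cannot exclude that same-numbered libraries share a culture, and the labels do not say. The skipping introns of EIF3K exon 6 and EIF4E2 exon 3 had replicate 3 highest in all 4 knockdown groups. The same held for the EIF4A2 intron at chr3:186784513-186785883, and inclusion of EIF6 exon 4 was lowest in replicate 3 of those groups. The skipping intron of EIF2AK4 and the downstream donor of EIF3F did not show this. Whether the numbers pair the samples is therefore not known. Of the 48 differences of named introns, none turned direction in 1271 recomputed values, 93 lost their call and 16 gained one. The fit with only the groups compared does not apply to the averaged comparisons. Depth is unknown, so small shares such as those of EIF3F cannot be set against counting error.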
